A study of Mus musculus with 6 samples.

Results

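Gm14391, Gm14440, Gm14419 and Gm4631 are predicted zinc finger genes of distal mouse chromosome 2. They were found by matching the Ensembl identifiers of the deposited FPKM table to GENCODE M21, and all 4 were present among its 680 genes. FPKM counts fragments per kilobase of exon, corrected for sequencing depth. The cells were MC3T3, a mouse pre-osteoblast line that the labels call stem cells, with bone as the tissue. RNA was sequenced from 3 libraries titled control group and from 3 libraries of cells treated for 48 hours with exosomes. Exosomes are small vesicles, released here by human umbilical vein endothelial cells (HUVEC). The labels give neither an exosome dose nor a subclone of the line. Sample titles call each library a biology repeat but do not say whether the repeats were separate cultures. The spread behind each p-value may therefore still be technical. The series title concerns the PERK-ATF4-CRELD2 pathway, and no question about zinc finger genes is stated in the labels.

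Library depth, recovered from the FPKM values, was 39630444 to 48369052 reads in control and 51315986 to 54429032 in exosome libraries. By its file name the table is the authors' list of changed genes, so each gene had been selected on these libraries and adjusted p-values are too small. Of 12 osteoblast markers 1, Dmp1, was among the genes analysed, and none of 9 endothelial, 10 embryonic, 5 macrophage or 4 adipocyte markers was. The cell type can therefore not be checked further on this table. None of 27 symbols for the silencing machinery of KRAB zinc finger proteins was among the genes analysed.

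Krüppel-associated box (KRAB) zinc finger proteins carry a row of fingers, short loops held by a zinc ion, that read DNA, and a KRAB part that binds the corepressor TRIM28. TRIM28 gathers enzymes that pack the bound DNA into silent chromatin, and many of these proteins silence retrotransposons. Their genes lie in clusters that grew by repeated duplication, and distal chromosome 2 of the mouse holds one with many near-identical copies. The functions of these 4 predicted genes are not given here.

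In GRCm38, Gm14391 (ENSMUSG00000078903) lies on chromosome 2 from 175191065 to 175206917 on the minus strand, and Gm14440 (ENSMUSG00000078901) from 175275125 to 175286805 on the plus strand. Gm4631 (ENSMUSG00000078899) lies from 175321955 to 175338197 on the minus strand, and Gm14419 (ENSMUSG00000078875) from 177000956 to 177012787 on the plus strand. All 4 are annotated as protein coding, and none overlaps another annotated gene on either strand. The cluster, taken as the stretch that spans 47 listed zinc finger genes at this end of the chromosome, covers 3.07 Mb from 175010241 to 178078476 and holds 87 annotated genes, 45 of them coding. The other 4 listed genes of chromosome 2, Zfp120, Gm10770, Zfp937 and Zfp442, lie apart at lower coordinates (150114406 to 150451486) and were left out of this stretch. These 4 were its only genes among those analysed, out of 55 analysed genes on chromosome 2.

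**Figure D1:**
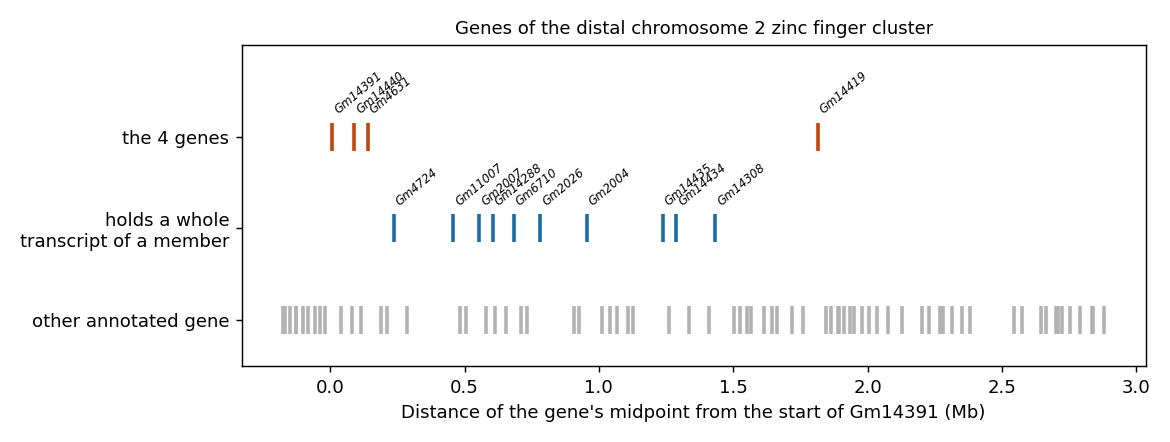
Position of the 87 annotated genes of the cluster, as the distance in Mb of each midpoint from the lower-coordinate end of Gm14391. The 4 genes described are in the top row, with Gm14391, Gm14440 and Gm4631 near each other and Gm14419 apart, and the middle row shows the 10 genes with a transcript that contains a whole transcript of one of them.

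Identity among the 4 was high but not complete. Over the longest annotated coding transcripts, Gm14391 and Gm14419 were identical at 93.4% of 1665 aligned bases, Gm14391 and Gm4631 at 93.0% of 1497, and Gm14419 and Gm4631 at 91.1% of 1497. The translated sequences held 16 zinc fingers of the form C-x2-C-x12-H-x3-H in Gm14391, 17 in Gm14419 and 13 in Gm4631. Gm14440 stood apart from the name zinc finger gene. Its longest annotated coding sequence had 195 bases for 64 residues and no such finger, although 1 forward frame of the same transcript held 11 of them outside that coding sequence. A KRAB pattern began at residue 11 in each of the 4 translations.

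The coding exon with the KRAB part shows how close the copies are, and is printed for all 4 genes from GENCODE M21 transcripts (GRCm38, coding bases 4 to 130, 5′ to 3′ on the coding strand). It lies at chr2:175197807-175197933 (minus strand) in Gm14391, chr2:175283298-175283424 (plus) in Gm14440, chr2:177009681-177009807 (plus) in Gm14419 and chr2:175327472-175327598 (minus) in Gm4631. Capitals mark bases that differ from Gm14391.
Gm14391: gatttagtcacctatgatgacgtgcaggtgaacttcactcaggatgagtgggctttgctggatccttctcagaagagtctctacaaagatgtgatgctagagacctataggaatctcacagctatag
Gm14440: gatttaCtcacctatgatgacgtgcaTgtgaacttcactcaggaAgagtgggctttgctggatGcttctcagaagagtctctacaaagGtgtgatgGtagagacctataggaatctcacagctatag
Gm14419: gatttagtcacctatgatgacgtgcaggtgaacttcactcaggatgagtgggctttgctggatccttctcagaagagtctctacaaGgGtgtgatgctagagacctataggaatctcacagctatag
Gm4631: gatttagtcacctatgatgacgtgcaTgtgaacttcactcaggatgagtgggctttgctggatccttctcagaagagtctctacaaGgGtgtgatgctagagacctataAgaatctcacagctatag
Over these 127 bases Gm14440 differed from Gm14391 at 6, Gm4631 at 4 and Gm14419 at 2.

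Repeats between fingers are shared far more widely. The stretch of 50 coding bases found in most other genes was the same in Gm14391, Gm14419 and Gm4631, and 43 other annotated genes held it. It lies at chr2:175195909-175195958 (minus), chr2:177011659-177011708 (plus) and chr2:175325570-175325619 (minus), and capitals mark the codons of the linker that joins neighbouring fingers.
Shared finger stretch: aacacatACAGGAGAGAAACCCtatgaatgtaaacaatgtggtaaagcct
In Gm14440 the most widely shared 50 coding bases, at chr2:175283637-175283686 (plus), were found in 22 other genes.
Gm14440 stretch: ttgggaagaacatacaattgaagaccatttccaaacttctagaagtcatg

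How much of each gene a read could identify was measured by cutting its annotated transcripts into all overlapping words of 100 bases and looking for each in the transcripts of every other gene, on both strands. In Gm14440 all 3283 words were found elsewhere, so none identified the gene. Its whole transcript of 3382 bases lies inside a transcript of Gm14288, at 175789357 to 175801093 on the minus strand of chromosome 2. The shares found elsewhere were 86.4% of 2532 words in Gm14419, 38.6% of 4303 in Gm4631 and 36.3% of 7905 in Gm14391. Every word within the longest coding sequence was shared in each of the 4 genes, so the words that identified Gm14391, Gm14419 and Gm4631 lay outside that sequence. An exact copy of a transcript of 1665 bases of Gm14391 lay in Gm6710, one of 1749 bases of Gm14419 in Gm2004, and one of 1494 bases of Gm4631 in 6 genes, Gm11007, Gm14308, Gm14434, Gm2007, Gm2026 and Gm4724.

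Most of this sharing was with genes outside the analysed table. Words shared with another of the 4 made up 17.7% in Gm14419, 11.5% in Gm4631, 9.73% in Gm14391 and 0 in Gm14440. None of the 10 genes holding a whole transcript of a member was among the 680 genes analysed. How the authors assigned reads that match several genes is not given in the sources used here. A value for one of these genes is therefore uncertain and may include reads of its copies, and the values below describe the rows as deposited.

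**Figure D2:**
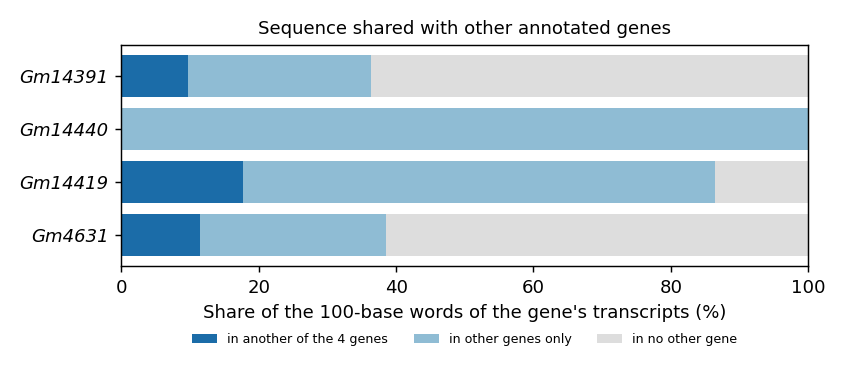
Share (%) of the distinct 100-base words of each gene's annotated transcripts found in another of the 4 genes, in other annotated genes only, or in no other gene. Gm14440 has no word of its own, and Gm14391 has the largest share of its own words.

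Start regions of the copies were also alike. RefSeq promoter windows (GRCm38.p6, 250 bases before to 50 after the start) were at hand for Gm14391, Gm14440 and Gm4631, that is 3 of 4. They are printed to show how alike the start regions are, with capitals on the motif CCAAT on either strand. The window of Gm14391 lies at chr2:175206875-175207174 (minus), that of Gm4631 at chr2:175338172-175338471 (minus) and that of Gm14440 at chr2:175274875-175275174 (plus). For Gm4631, which has several RefSeq starts, the window nearest to the GENCODE start was taken.
Gm14391: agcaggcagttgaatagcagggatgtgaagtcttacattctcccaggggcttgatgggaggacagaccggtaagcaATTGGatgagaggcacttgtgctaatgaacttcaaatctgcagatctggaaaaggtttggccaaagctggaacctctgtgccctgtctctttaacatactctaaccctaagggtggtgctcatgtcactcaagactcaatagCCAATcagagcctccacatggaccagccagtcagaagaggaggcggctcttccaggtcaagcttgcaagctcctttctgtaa
Gm4631: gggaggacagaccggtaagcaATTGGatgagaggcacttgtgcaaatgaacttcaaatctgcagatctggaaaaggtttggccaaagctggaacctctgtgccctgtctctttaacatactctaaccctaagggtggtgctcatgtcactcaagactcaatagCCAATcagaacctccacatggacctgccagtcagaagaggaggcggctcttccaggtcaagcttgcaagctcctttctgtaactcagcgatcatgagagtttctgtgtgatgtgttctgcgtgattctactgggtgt
Gm14440: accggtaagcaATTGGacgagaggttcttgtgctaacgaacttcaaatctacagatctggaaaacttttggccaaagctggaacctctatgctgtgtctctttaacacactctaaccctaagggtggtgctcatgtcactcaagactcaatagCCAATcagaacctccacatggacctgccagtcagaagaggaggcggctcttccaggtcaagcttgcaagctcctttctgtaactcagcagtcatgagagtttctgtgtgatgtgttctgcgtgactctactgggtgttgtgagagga
Gm14391 and Gm4631 were identical at 98.8% of 245 aligned bases, Gm14440 and Gm4631 at 94.8% of 290, and Gm14391 and Gm14440 at 94.5% of 235. Each window held CCAAT at 2 places, a motif present in 37.9% of 27025 RefSeq promoter windows, 1 per symbol. TATAAA and GGGCGG, searched on both strands, are in none of the 3 windows and in 14.2% and 35.9% of all.

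All 4 genes were weakly expressed. Mean FPKM in control libraries was 0.284 in Gm14419, 0.141 in Gm4631, 0.120 in Gm14391 and 0.0814 in Gm14440, and no neighbours in this order differ beyond the spread between libraries. The median gene of the table had a mean of 0.187 FPKM over all libraries, which is not the measure of the control means above. Over all libraries Gm14391, Gm14440 and Gm4631 had means below 0.1 FPKM, while Gm14419 was near that median. Multiplying FPKM by the GENCODE M21 exon length gave whole read numbers, within 0.02 reads, in every library for all 4 genes. The mean was lower with exosomes in all 4, against 74% of the 680 genes, so the direction alone does not set them apart. In bulk RNA, fewer cells expressing a gene and less RNA per cell cannot be told apart.

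Gm14440 was the member whose groups did not overlap. It had 0.0746, 0.109 and 0.0611 FPKM in control libraries 1, 2 and 3, and 0.0227, 0.0326 and 0.00576 in exosome libraries 1, 2 and 3. Every exosome library was below every control library, as in 64.1% of all genes of the table. The values rest on 10, 16 and 10 reads against 4, 6 and 1.

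The control mean of Gm14440 was 0.0814 ± 0.0245 FPKM and the exosome mean 0.0203 ± 0.0136 (SD, n = 3 per group), a level 4.002 times as high in control. From summed reads, exosome over control was 0.255 (95% exact interval 0.117 to 0.511, counting error only). The difference was −0.08 ± 0.03 on the log2(FPKM + 1) scale (SE, limma adjusted p = 0.0499). Gm14440 fell by this test with the largest p-value of the 403 genes that passed, and was the 1 of 4 members that did. Of all genes tested, 59.3% passed, 43.8% as lower and 15.4% as higher, shares that were 16.5% and 31.2% after each library was centred on its median. The call was lost when any 1 library was left out, with limma adjusted p between 0.0543 and 0.136. Median centring also gave no call, with a difference of 0.06 (limma adjusted p = 0.155). The shift it adds exceeds the control level of Gm14440 on this scale, so a call as lower could not be kept. The median used is also that of genes selected as changed. All of its exonic sequence is shared with Gm14288.

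Gm14391 and Gm14419, by contrast, were high in a single control library. Gm14391 had 0.0484, 0.0264 and 0.285 FPKM in control libraries 1 to 3, from 15, 9 and 108 reads. In exosome libraries 1 to 3 it had 0.0540, 0.0188 and 0.0224 FPKM, from 22, 8 and 9 reads. Control library 3 was 5.90 times as high as the next control library, and exosome library 1 was above the other control libraries.

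Gm14419 had 0.0942, 0.163 and 0.594 FPKM in control libraries 1 to 3, from 10, 19 and 77 reads. Exosome libraries 1 to 3 had 0.1002, 0.144 and 0.0436 FPKM, from 14, 21 and 6 reads. Control library 3 was again the high one, at 3.65 times the next, and 2 of 3 exosome libraries were above control library 1.

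The control mean of Gm14391 was 0.120 ± 0.144 FPKM against 0.0317 ± 0.0193 with exosomes (SD, n = 3 per group), and its difference of −0.11 ± 0.09 on the log2(FPKM + 1) scale did not pass (SE, 95% interval −0.35 to 0.13, limma adjusted p = 0.296). Gm14419 had 0.284 ± 0.271 against 0.0959 ± 0.0503 FPKM, and its difference of −0.21 ± 0.15 did not pass either (95% interval −0.60 to 0.18, limma adjusted p = 0.241). Without control library 3 the differences were −0.01 and −0.04 (limma adjusted p = 0.801 and 0.491). In summed reads, exosome over control was 0.246 for Gm14391 with all libraries and 0.856 without control library 3 (95% exact intervals 0.168 to 0.354 and 0.502 to 1.49, counting error only). For Gm14419 the same ratio was 0.322 with all libraries and 0.745 without control library 3 (0.219 to 0.466 and 0.452 to 1.24). In both genes the exosome libraries thus overlapped control libraries 1 and 2 in range. Control library 3 was left out for being the highest, and leaving out the highest control can only raise the ratio.

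Gm4631 was high in another control library. It had 0.0172, 0.401 and 0.00470 FPKM in control libraries 1 to 3, from 3, 77 and 1 reads. Exosome libraries 1 and 3 were at 0, where 3 reads, the limit that a count of 0 allows, would be 0.0131 and 0.0133 FPKM, and library 2 had 0.00835 FPKM from 2 reads. Control library 2 held 94.8% of the summed control FPKM and was 23.3 times as high as the next.

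The means of Gm4631 were 0.141 ± 0.226 in control and 0.00278 ± 0.00482 FPKM in exosome libraries (SD, n = 3 per group). Its difference of −0.17 ± 0.14 on the log2(FPKM + 1) scale did not pass (SE, 95% interval −0.52 to 0.19, limma adjusted p = 0.286), and without control library 2 it was −0.01 (limma adjusted p = 0.589). With limma-voom, which weights each value by its read number, the recovered reads gave −3.33 ± 1.36 for this gene (SE, adjusted p = 0.0399), where 94.4% of 661 genes were called, 71.4% as lower, and 2 of the 4 members, Gm14440 being the other. In summed reads, exosome over control was 0.0206 (95% exact interval 0.00245 to 0.0768) with all libraries, and 0.279 (0.0252 to 1.94) without control library 2, from 2 against 4 reads.

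**Figure D3:**
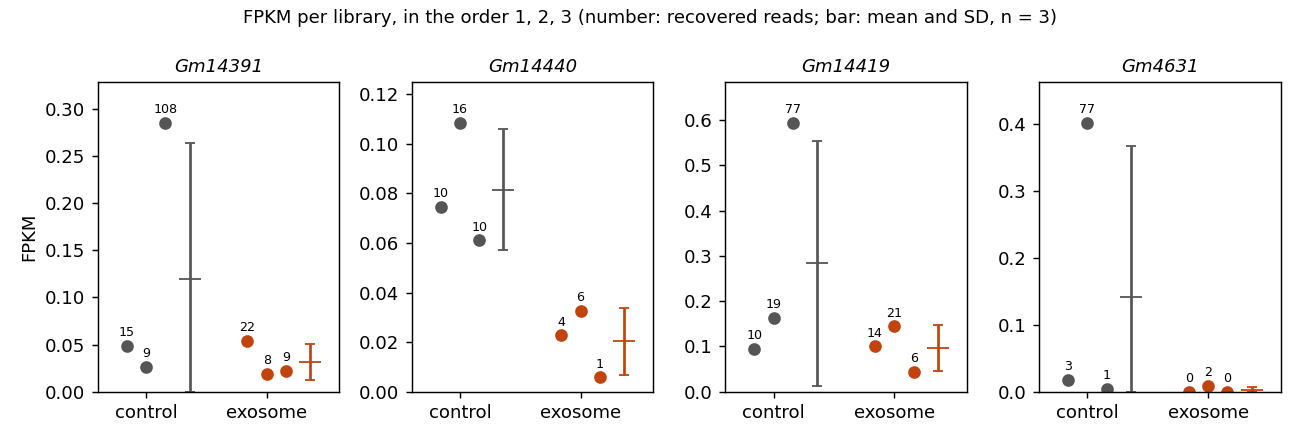
FPKM of each gene in control and exosome libraries 1, 2 and 3 (points, left to right), with the recovered reads above each point and the mean ± SD (n = 3) as a bar that stops at 0. The groups are separate in Gm14440, while 1 control library carries most of the control signal in Gm14391 and Gm14419 (library 3) and in Gm4631 (library 2).

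Such a spread between control libraries was rare in the table. Its genes had been selected as changed, so how rare the spread is among unselected genes is not known. The SD of control FPKM was 160% of the mean in Gm4631, 120% in Gm14391, 95.5% in Gm14419 and 30.0% in Gm14440, and the median of the 657 genes with control signal was 33.9%. Since weak genes scatter more, the same was looked at among the 345 genes with a mean of 10 to 100 control reads, a range chosen after seeing the data, where the median was 31.1%. Of these, 0 had a higher value than Gm4631, 2 than Gm14391 and 5 than Gm14419, counts that include Gm4631 and Gm14391, while 180 were above Gm14440. A control library with over 66% of the summed control FPKM was seen in 15 genes for library 1, 24 for library 2 and 11 for library 3. Control libraries 1, 2 and 3 held the highest control value in 28.9%, 44.9% and 26.2% of the 657 genes, so control library 3 was not generally high.

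**Figure D4:**
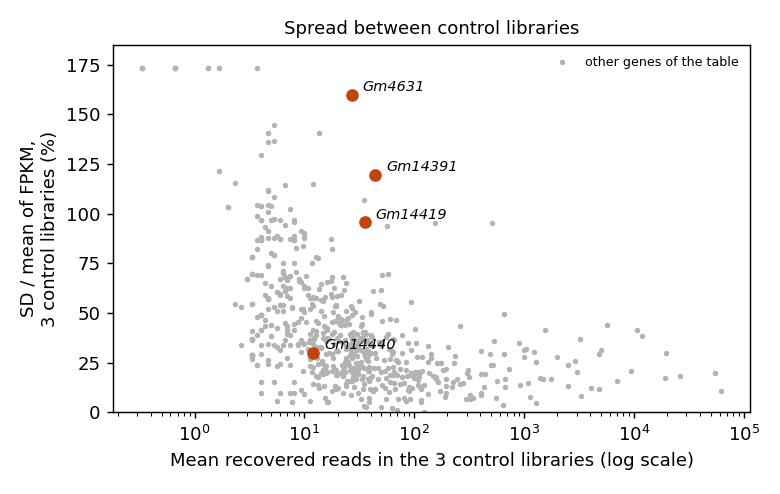
SD over mean of FPKM (%) in the 3 control libraries against mean recovered control reads (log scale), for each gene of the table with recovered reads (grey) and the 4 genes described (orange). Gm4631, Gm14391 and Gm14419, at 160%, 120% and 95.5%, lie above nearly all genes with like read numbers, and Gm14440 lies within them.

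Splitting of reads between near-identical rows would leave their sum unchanged, so the 4 were also summed, as a description with no test. The sum was 38, 121 and 196 reads in control libraries 1 to 3, or 0.959, 2.78 and 4.05 RPM (reads recovered, scaled to library size). Exosome libraries 1 to 3 had 40, 37 and 16 reads, or 0.767, 0.680 and 0.312 RPM. All exosome libraries were below all control libraries, as in 64.1% of the single genes of the table. The rows summed had themselves been selected as changed. Control library 1 was nearer to the exosome libraries than to the other controls. The group means were 2.60 ± 1.55 and 0.586 ± 0.242 RPM (SD, n = 3 per group), with exosome at 0.226 of control.

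The make-up of that sum differed between libraries. Gm4631 supplied 63.6% of it in control library 2 and 0.510% in control library 3, where Gm14391 supplied 55.1% and Gm14419 39.3%. Exosome libraries 1 to 3 had 55.0%, 21.6% and 56.2% from Gm14391 and 35.0%, 56.8% and 37.5% from Gm14419. The sum leaves out the copies of these genes that are not analysed here.

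**Figure D5:**
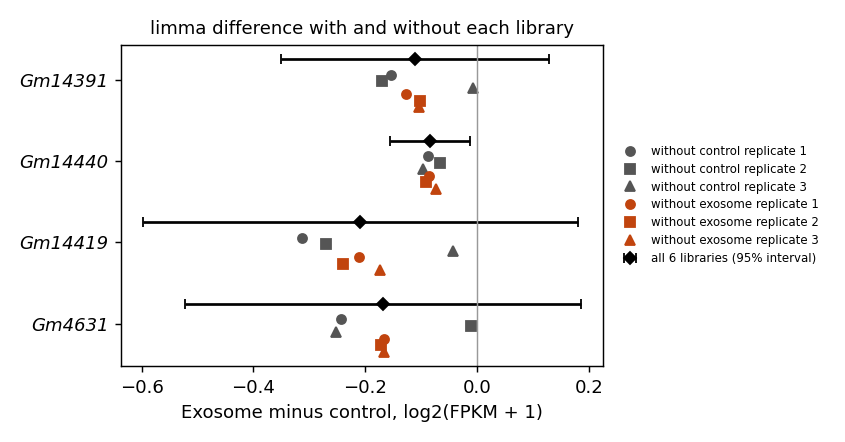
Difference of exosome minus control libraries on the log2(FPKM + 1) scale by limma, with all 6 libraries (black, 95% interval) and with 1 library left out (grey for a control, orange for an exosome library). Leaving out control library 3 brings Gm14391 and Gm14419 to −0.01 and −0.04, leaving out control library 2 brings Gm4631 to −0.01, and Gm14440 stays between −0.10 and −0.07.

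Likeness to other rows was described by Pearson's r of log2(FPKM + 1) over the 6 libraries, among 421 genes with a symbol and a mean of at least 0.1 FPKM. These libraries share the groups on which all genes had been selected, so these values are a description only. For Gm14391 the closest was Gm14419 (r = 0.951), followed by the olfactory receptor gene Olfr1347 (0.923) and the processed pseudogene Gm5778 (0.899). The r between Gm14391 and Gm14419 was −0.18 without control library 3, so it rests on that library, and 17.5% of the words of Gm14419 occur in Gm14391. Among the other pairs of members, Gm14440 and Gm4631 had r = 0.76 (0.81 without control library 2, which is the highest in both), and the remaining 4 pairs lay between −0.24 and 0.30. Gm14391, Gm14440 and Gm4631 had means below 0.1 FPKM and were not among the 421 genes. Within those genes, Gm14419 was closest to the antisense locus Ppp1r18os (0.926), Olfr1347 (0.901) and the antisense locus Gm15563 (0.894), all below its r with Gm14391. Gm4631 was closest to the pseudogene Gm19046 (0.977), the unconfirmed locus Gm37127 (0.963) and the antisense locus Gm17160 (0.940), and Gm14440 to the antisense locus Gm28085 (0.992), the galectin gene Lgals4 (0.988) and Mroh6 (0.983).

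The other 5 analysed genes of the zinc finger list also had lower means with exosomes, as did 74% of all 680 genes. The list was drawn by gene symbol, such as names starting with Zfp, together with the listed zinc finger genes of chromosome 2. Zinc finger genes under other symbols were not looked for. Of 538 annotated symbols in the list, 9 were analysed, and 5 lie outside the cluster. Limma called 3 of the 9 lower and 0 higher, against 43.8% and 15.4% of all genes. The 3 were Zfp469, annotated as a lincRNA, the pseudogene Zfp520-ps, and Gm14440, whose longest annotated coding sequence holds no finger of the form searched. An unadjusted p under 0.05 was found for 4 of the 9, all lower, against 70.3% of all genes in either direction. Limma-voom called 6 of the 8 it could test lower and 0 higher, against 71.4% and 23% of all genes, and Zfp469 had no value in it. The median difference was −0.11 over the 9, −0.14 over the 4 cluster genes and −0.13 over the 680 genes.

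Zfp469, a row that GENCODE M21 annotates as a lincRNA on chromosome 8, fell from 4.70, 4.92 and 4.56 FPKM in control to 2.00, 2.16 and 2.17 in exosome libraries, with groups that do not overlap (−0.88 ± 0.04, SE, limma adjusted p = 0.00139). The pseudogene Zfp520-ps fell from 0.293, 0.177 and 0.240 to 0.0741, 0.0568 and 0.0301 FPKM (limma adjusted p = 0.0144). Its groups did not overlap either, but the call was lost after median centring (limma adjusted p = 0.249). Zfp750, a regulator of epidermal differentiation, had 0.0803 ± 0.0435 against 0.0117 ± 0.0119 FPKM (SD, n = 3; limma adjusted p = 0.0707). Zfp473, whose human counterpart acts in histone mRNA processing, had 0.0755 ± 0.0273 against 0.0288 ± 0.0116 FPKM (limma adjusted p = 0.0986), and the X-linked Zfp711 had 0.0246 ± 0.00771 against 0.00235 ± 0.00407 (limma adjusted p = 0.217). After median centring, which added 0.15 to every log2 difference, Gm14391, Gm14440, Zfp750, Zfp473 and Zfp711 had differences above 0, and Zfp711 was called higher (limma adjusted p = 0.01995). The control levels of Gm14440, Zfp750, Zfp473 and Zfp711 are below that shift.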

How the data were processed

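Values were FPKM for 680 genes, made by the authors with 1 column per library and deposited as the list of genes they had called changed, per the name of the deposited file. The aligner, counter, genome build, annotation and caller are not given in the sources used here. Groups and replicate numbers came from the sample titles.

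Identifiers were matched to GENCODE M21 (GRCm38), which held 672 of 680. FPKM times exon length gave whole reads within 0.02 in all libraries for 661 genes, and 74.7% of 1691 recovered values of 2 to 21 reads were even, so mates of a pair may both be counted. Intervals on read ratios and the limit of 3 reads for a count of 0 cover counting error only.

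Group was the sole term of a two-sided limma 3.58.1 fit (R 4.3.3) to log2(FPKM + 1). Its p-values were adjusted by Benjamini-Hochberg over all 680 genes, and a gene was called at an adjusted p under 0.05. The script was tested on simulated data whose genes had not been selected as changed. That test checked the code and says nothing on error rates in this selected list. This scale understates the change of weak genes. Genes named are the 4 members, the zinc finger list, and per member the 3 genes of highest r among those with a mean of at least 0.1 FPKM. The members and lists were chosen with earlier results of these data known.

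Words of 50, 100 and 150 bases were matched within GENCODE M21 transcripts. Identities were computed with Biopython 1.88 and exact intervals with scipy 1.17.1. Alternatives were pseudocounts of 0.1 and 0.01, limits of 1 and 0.1 mean FPKM, median centring, a trended and robust prior, the replicate number as a block, limma-voom on recovered reads, and leaving out each library. Leave-one-out values of the summed level were added after seeing the data.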

Additional observations from a re-analysis of the deposited data

How the results depend on the processing

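Of the 680 genes, limma called 403. It called 611 with a pseudocount of 0.01, 131 with a limit of 1 mean FPKM (fewer genes tested), 624 with limma-voom, 201 with the replicate block and 164 to 356 with 1 library left out (fewer samples). The cause of the other changes was not tested. The zinc finger list had 3 of 9 members lower (43.8% of all genes), 6 with a pseudocount of 0.01 (66.9%) and 4 with one of 0.1 (388 of 680 genes). It had 6 of 8 lower with limma-voom (71.4%), 5 with a trended and robust prior (59.9%) and 2 with the replicate block (21.6%). At the limit of 1 FPKM, 1 of 1 tested was lower (54.3%), and at 0.1 FPKM 2 of 3 were (230 of 428 genes). With 1 library left out 2 to 3 were lower, against 116 to 280 of the 680 genes. After median centring 1 was lower and 1 higher (16.5% and 31.2%). Median centring, which adds 0.15 to each log2 difference, took Gm14391 from −0.11 to 0.0351 and Gm14440 from −0.0837 to 0.0625. For Gm14440 this shift exceeds the control level, so the centred difference could not be negative. Gm14440 lost its call with the replicate block (−0.0837, limma adjusted p = 0.104) and in every leave-one-out fit (−0.0973 to −0.0657), and kept it with both smaller pseudocounts, the trended prior and limma-voom (limma adjusted p = 0.0222, 0.0175, 0.0212 and 0.0172). Gm4631 gained a call with limma-voom only (−3.33), among the alternatives run. Gm14391 and Gm14419 passed under none of them. The limit of 1 FPKM gave no value for the 4 genes, and that of 0.1 FPKM gave one for Gm14419 alone.

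Deviations from the group means correlated at −0.13, 0.08 and −0.22 between libraries of the same number. Libraries of unlike number were not compared, so these values cannot decide whether the libraries were paired. The main fit has no block, and the block result is given here only. Leaving out 1 library moved the exosome-minus-control difference of the summed level from −2.01 to between −2.83 and −1.28 RPM. With words of 50 and 150 bases, 94.3% and 77.5% of Gm14419 and 43.1% and 36.5% of Gm4631 were shared, and Gm14440 remained at 100%. Depth limits the 4 genes to 0 to 108 reads per library, so differences among the low libraries of Gm4631 were not detectable.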
